A study of Rattus norvegicus with 12 samples.

Results

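The 10 genes described here make, store, take up, break down or sense acetylcholine. They are the enzymes Chat, Ache and Bche, the transporters Slc18a3 and Slc5a7, the muscarinic receptors Chrm1, Chrm2, Chrm3 and Chrm4, and the nicotinic receptor subunit Chrna7. They were taken by symbol from the 31177 rows of the count table. Each symbol had 1 row, and all 10 genes were among the 18850 that had enough counts to be tested. The 12 brain libraries fall into 3 groups of 4, called AD-HFD (an Alzheimer's disease model given a high-fat diet), AD (the model, with no high-fat diet named) and Sham (the control samples). The study's stated interest was in how the disease model and metabolic stress act on brain transcription. The labels do not say how the model was made, what the Sham procedure was, or the strain, age, sex, brain region, diet or its duration, and no group had the diet without the model. The titles speak of mouse, but the organism is given as Rattus norvegicus and the gene identifiers are rat, so the genes are treated as rat genes. Nothing in the labels says that the samples came from separate animals, and the p-values therefore cover the spread among samples that may not be separate animals. AD-3, for example, is replicate 3 of AD.

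Cholinergic neurons make acetylcholine from choline and acetyl coenzyme A with choline acetyltransferase (Chat), load it into vesicles with the vesicular transporter (Slc18a3) and recover choline after release with the high-affinity choline transporter (Slc5a7). Acetylcholinesterase (Ache) ends the signal, and butyrylcholinesterase (Bche), largely a product of glia and other non-neuronal cells, hydrolyses acetylcholine as well. The cell bodies sit in the basal forebrain, striatum, medial habenula, brainstem and spinal cord, while the receptors are spread over their targets. Chrm1 and Chrm3 couple to Gq and phospholipase C, Chrm2 and Chrm4 couple to Gi, and Chrna7 forms a calcium-permeable ion channel. Loss of basal forebrain cholinergic neurons is a known feature of Alzheimer's disease, and cholinesterase inhibitors are used to treat it.

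Promoter sequences of 4 members are shown because the results turn on these genes: Chat and Slc18a3 share a locus but did not always move together, and Ache and Chrm1 carried the called rise and the larger called fall in AD. All 10 members matched by symbol in RefSeq's promoter table (build GRCr8), which gives 250 bases before and 50 after each annotated start. In the RefSeq annotation Slc18a3 lies inside the span of Chat on the same strand, with its start 602 bases downstream of that of Chat, so counts of this pair could share reads. The sequences are in lower case, 5′ to 3′, with capitals for matches on either strand to the TATA box TATAAA, the cyclic AMP response core TGACG, the GC box GGGCGG and the EGR element GCGGGGGCG, which can overlap each other.
Chat (chr16:7723367-7723666, minus strand): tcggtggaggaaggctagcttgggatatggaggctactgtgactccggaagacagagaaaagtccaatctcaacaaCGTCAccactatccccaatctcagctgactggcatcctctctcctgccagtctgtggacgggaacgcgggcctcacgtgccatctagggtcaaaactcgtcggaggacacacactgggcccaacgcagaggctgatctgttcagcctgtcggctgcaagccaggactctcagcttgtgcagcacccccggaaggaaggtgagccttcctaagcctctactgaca
Slc18a3 (chr16:7722765-7723064, minus strand): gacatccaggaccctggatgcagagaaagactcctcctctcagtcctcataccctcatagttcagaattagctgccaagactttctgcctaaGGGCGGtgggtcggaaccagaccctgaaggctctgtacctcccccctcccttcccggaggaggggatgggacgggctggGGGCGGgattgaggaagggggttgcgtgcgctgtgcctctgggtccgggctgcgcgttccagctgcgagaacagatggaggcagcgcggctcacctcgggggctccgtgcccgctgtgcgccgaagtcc
Ache (chr12:25050361-25050660, minus strand): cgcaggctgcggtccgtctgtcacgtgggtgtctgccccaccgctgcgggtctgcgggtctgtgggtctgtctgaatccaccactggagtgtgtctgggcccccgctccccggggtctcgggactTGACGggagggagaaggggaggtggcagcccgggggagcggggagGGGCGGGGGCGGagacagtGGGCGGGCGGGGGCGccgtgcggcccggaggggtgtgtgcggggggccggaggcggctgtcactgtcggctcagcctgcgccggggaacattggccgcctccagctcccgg
Chrm1 (chr1:214996109-214996408, plus strand): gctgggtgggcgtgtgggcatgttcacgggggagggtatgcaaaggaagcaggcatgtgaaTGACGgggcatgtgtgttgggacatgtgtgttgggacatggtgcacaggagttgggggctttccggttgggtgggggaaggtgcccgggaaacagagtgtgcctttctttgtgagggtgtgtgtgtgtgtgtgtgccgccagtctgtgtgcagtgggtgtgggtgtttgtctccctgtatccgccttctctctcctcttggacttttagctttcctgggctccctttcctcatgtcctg
The Ache window had 4 GC boxes, 2 EGR elements that overlap some of them, and 1 TGACG core apart from these, the Slc18a3 window 2 GC boxes, and the Chat and Chrm1 windows 1 TGACG core each. GC content was 57.3% for Chat, 64.3% for Slc18a3, 75.0% for Ache and 57.7% for Chrm1, against a median of 51.7% over 33469 promoters of that length. Of the 10 member promoters, 7 held GGGCGG (33.1% of all promoters), 5 held TGACG (21.2%), 3, those of Ache, Slc5a7 and Chrm3, held GCGGGGGCG (2.73%) and 1, that of Slc5a7, held TATAAA (14.2%). Of the other motifs searched, CANNTG was found in 9 members (72.1% of all promoters) and GGACAG in 1 (21.7%), and no member held TGACGTCA (1.83%) or TTCAGCACC (0.356%). These are letter matches and not sites of binding.

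Total counts ran from 26668974 to 35351792 per library. Levels are given in CPM, counts per 1000000 of the scaled library size, and differences as log2 fold changes ± SE from the quasi-likelihood test of edgeR, with p-values adjusted by the Benjamini-Hochberg method over all 18850 genes, called at an adjusted p under 0.05. All 8 general neuron markers were detected in every library, but their summed level was lowest in AD-HFD-4, at 1664 CPM, and 2562 to 7255 CPM in the other AD-HFD libraries, with 5701 to 6476 CPM in AD and 8105 to 10439 CPM in Sham. Of 8 cerebral cortex excitatory neuron markers 7 were in the table, and their sum was 592 to 2861 CPM in AD-HFD, highest in AD-HFD-3, 381, 182, 2160 and 277 CPM in AD-1 to AD-4, and 2965 to 4437 CPM in Sham. The sum of 10 thalamus markers was 126 to 170 CPM in AD-HFD, 2245, 693, 149 and 1554 CPM in AD-1 to AD-4, and 90.9 to 177 CPM in Sham. AD-3 thus lay apart from the other AD libraries in both lists. Whether these differences in tissue content have a part in the results below was not tested. In bulk tissue, fewer cells of a type and less RNA per cell cannot be told apart.

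In AD against Sham 3 of the 10 genes were called, with Ache higher and Chrm1 and Chrm4 lower, where 6.23% of all genes tested were called, 3.07% higher and 3.16% lower. In AD-HFD against Sham 5 of 10 were called, with Chat and Slc18a3 higher and Chrm2, Chrm3 and Chrm4 lower, where 32.7% of all genes were called, 19.7% higher and 12.9% lower. In AD-HFD against AD none of the 10 was called by edgeR, where 0.0106% of all genes were, although 3 members had an unadjusted p under 0.05, as did 30.5% of all genes, and DESeq2 called 2 and limma voom 0. DESeq2 called 16.5% of all genes it tested in that comparison, so its 2 of 10 is near its own background. Groups did not overlap for 3 members in AD against Sham (21.6% of all genes), for 6 in AD-HFD against Sham (35.1%) and for none in AD-HFD against AD (5.46%). The median log2 fold change of the 10 genes was 0.69 in AD against Sham, -0.06 in AD-HFD against AD and -0.57 in AD-HFD against Sham, beside 0.06, 0.04 and 0.03 over all genes. The 3 comparisons share groups, so their values are not independent of each other. The median SD of log2 CPM among the 10 genes within a group was 1.09 in AD-HFD, 1.15 in AD and 0.24 in Sham, beside medians over all genes tested of 0.49, 0.40 and 0.21, so the member median was above that of all genes in all 3 groups, by little in Sham.

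**Figure D1:**
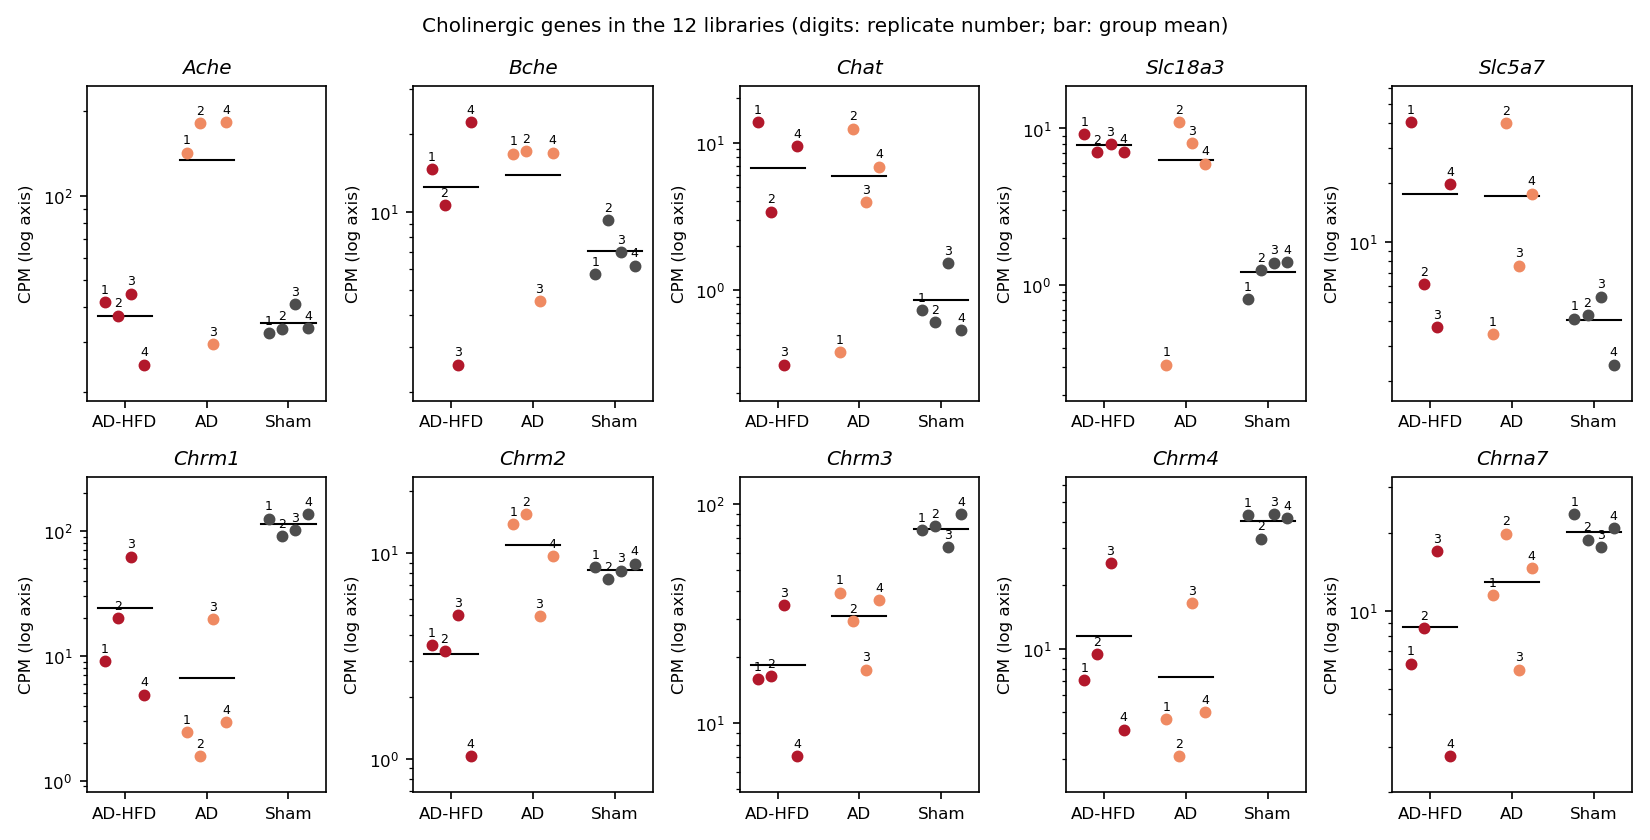
Level of each of the 10 genes in CPM (log axis) in the 4 AD-HFD, 4 AD and 4 Sham libraries; each point is a library with its replicate number and each bar a group mean. The Sham points lie within 2.86-fold of each other for every gene, while AD-3 stands apart from the other AD libraries for Ache, Bche, Chrm1 and Chrm4, and Slc18a3 lies at 7.04 to 9.24 CPM in AD-HFD, above 0.818 to 1.41 CPM in Sham.

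Of the genes that make and load acetylcholine, Chat and Slc18a3 rose in AD-HFD against Sham, while in AD their group means were higher than in Sham without a call by edgeR. Slc18a3 stood at 9.24, 7.04, 7.97 and 7.12 CPM in AD-HFD-1 to AD-HFD-4, at 0.312, 10.9, 8.09 and 5.95 CPM in AD-1 to AD-4, and at 0.818, 1.25, 1.39 and 1.41 CPM in Sham-1 to Sham-4. All AD-HFD libraries lay above all Sham libraries, while in AD replicate 1 lay below every Sham library and the other 3 above. Slc18a3 rose by 2.69 ± 0.654 in AD-HFD against Sham (6.46-fold, 95% interval of the log2 fold change 1.27 to 4.12, adjusted p = 0.0113 by edgeR). It was the only member whose groups did not overlap in the higher direction, as was the case for 18.9% of all genes tested. The call held when any 1 library was left out (log2 2.53 to 2.77, adjusted p at most 0.0395). In AD against Sham Slc18a3 averaged 6.32 ± 4.50 CPM against 1.22 ± 0.275 CPM (SD, n = 4 each) and its log2 fold change of 2.39 ± 0.654 just missed the threshold by edgeR (adjusted p = 0.0518). It passed by DESeq2 (adjusted p = 0.00468), without AD-1 (2.81, adjusted p = 0.00195), without AD-HFD-3 or without AD-HFD-4 (adjusted p = 0.0421 and 0.0488).

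Chat, whose product makes acetylcholine, was at 13.7, 3.41, 0.313 and 9.45 CPM in AD-HFD-1 to AD-HFD-4, at 0.381, 12.5, 3.97 and 6.89 CPM in AD-1 to AD-4, and at 0.730, 0.607, 1.53 and 0.536 CPM in Sham-1 to Sham-4. In each model group 3 libraries lay above all Sham libraries and 1, AD-HFD-3 or AD-1, below them. Its mean was 6.73 ± 6.02 CPM in AD-HFD against 0.851 ± 0.460 CPM in Sham (SD, n = 4 each), and it rose by 2.98 ± 1.02 (adjusted p = 0.042 by edgeR). That call was lost without AD-4, AD-HFD replicate 1, 2 or 4, or any 1 Sham library (adjusted p 0.0554 to 0.119, log2 2.37 without AD-HFD-1 to 3.41 without Sham-3), and by limma voom (log2 2.12, adjusted p = 0.31). The AD value against Sham, 2.81 ± 1.02, did not pass by edgeR (adjusted p = 0.119). Before adjustment the edgeR p-values were close, 0.0173 in AD and 0.0126 in AD-HFD, each against Sham. The adjusted values also depend on how many other genes differ, so the call in 1 group alone does not set the groups apart. The AD value passed by DESeq2 (adjusted p = 0.0227) and without AD-HFD-3 (adjusted p = 0.0481).

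Slc5a7, the choline transporter, was at 40.4, 6.15, 3.72 and 19.7 CPM in AD-HFD-1 to AD-HFD-4, at 3.43, 40.0, 7.63 and 17.6 CPM in AD-1 to AD-4, and at 4.12, 4.28, 5.31 and 2.41 CPM in Sham-1 to Sham-4. The same libraries as for Chat, AD-HFD-3 and AD-1, were the lowest of their groups, and they overlapped Sham. Its log2 fold change was 2.12 ± 0.804 in AD-HFD against Sham (adjusted p = 0.0609 by edgeR) and 2.09 ± 0.803 in AD against Sham (adjusted p = 0.138). DESeq2 called it in both (adjusted p = 0.0185 and 0.0408). Against Sham, the AD-HFD value passed without AD-1, AD-2 or AD-HFD-3 (adjusted p 0.0223 to 0.0476), and without AD-HFD-1 it was 1.29 (adjusted p = 0.225). Between AD-HFD and AD the 3 genes differed by 0.17 ± 0.865 (Chat), 0.30 ± 0.576 (Slc18a3) and 0.02 ± 0.753 (Slc5a7), with adjusted p of 0.746 to 0.987 by edgeR. The 95% intervals reach from -1.71 to 2.06, from -0.95 to 1.56 and from -1.61 to 1.66. Those of Chat and Slc5a7 thus include severalfold differences in either direction, and that of Slc18a3 is narrower.

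The proportions of the 3 genes varied among libraries. The ratio of Slc18a3 to Chat counts, in which gene length cancels when libraries are compared, was 25.5 in AD-HFD-3 (255 and 10 counts, 95% counting interval 13.6 to 53.8). In the rest it was 0.672, 2.07 and 0.754 in AD-HFD-1, AD-HFD-2 and AD-HFD-4, 0.818, 0.878, 2.04 and 0.863 in AD-1 to AD-4, and 1.12, 2.05, 0.911 and 2.63 in Sham-1 to Sham-4. AD-HFD-3 thus kept the Slc18a3 level of its group while its Chat count was the lowest of all 12 libraries. The ratio of Slc5a7 to Chat was 2.94, 1.80, 11.9 and 2.09 in AD-HFD-1 to AD-HFD-4, 9.0, 3.21, 1.92 and 2.55 in AD-1 to AD-4, and 5.64, 7.05, 3.47 and 4.50 in Sham-1 to Sham-4. It was highest in the 2 libraries with the fewest Chat counts, AD-HFD-3 and AD-1 (10 and 11 counts). These intervals cover counting error only.

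**Figure D2:**
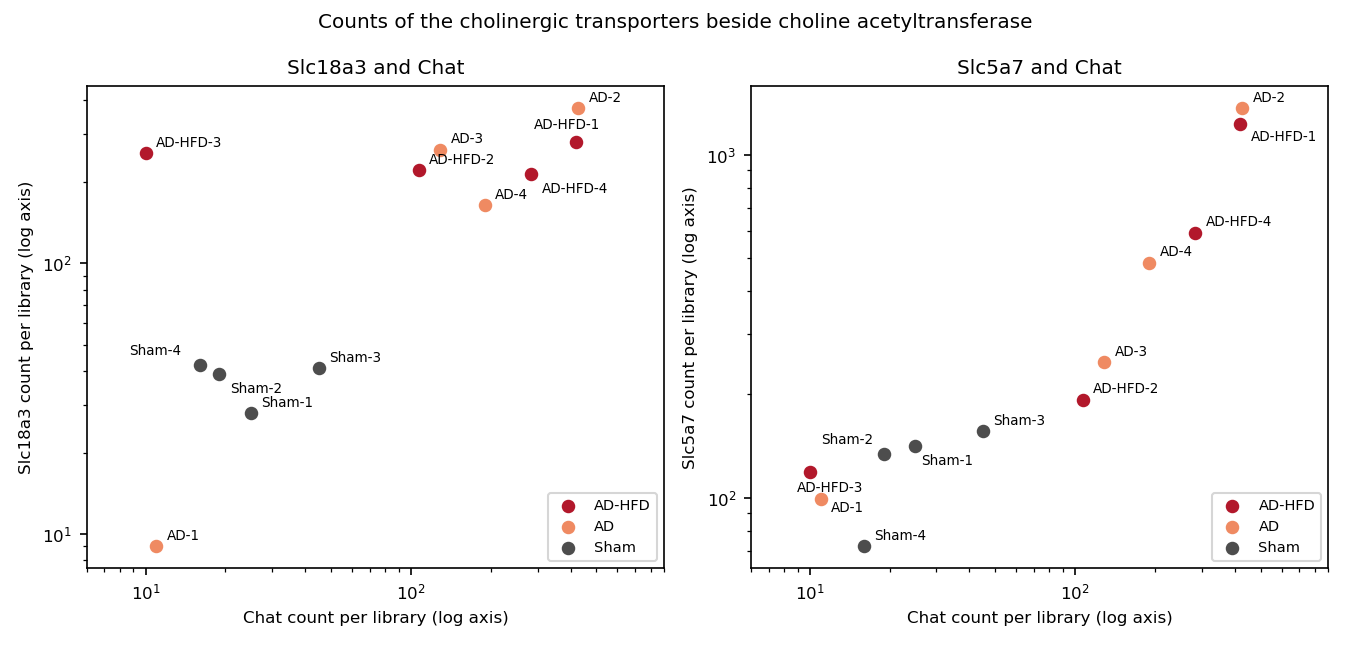
Counts of Slc18a3 (left) and Slc5a7 (right) against counts of Chat in each of the 12 libraries, on log axes, coloured by group. On the left AD-HFD-3 lies far to the left of the other AD-HFD libraries at a like Slc18a3 count (255 beside 214 to 281), and on the right AD-2 and AD-HFD-1 have the highest counts of both genes.

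Of the enzymes that break down acetylcholine, Ache was high in 3 of the 4 AD libraries and near the Sham level everywhere else. It stood at 41.7, 37.4, 44.8 and 25.0 CPM in the AD-HFD libraries in replicate order, at 142, 182, 29.5 and 183 CPM in those of AD, and at 32.4, 33.6, 41.1 and 33.7 CPM in those of Sham. AD-3 was below every Sham library, and the AD-HFD libraries overlapped Sham. Ache rose by 1.93 ± 0.428 in AD against Sham (3.81-fold, adjusted p = 0.0241 by edgeR). With AD-3 as the only AD library the log2 fold change was -0.26 (adjusted p = 0.66). The call was also lost without AD replicate 1, 2 or 4 or any 1 Sham library (log2 1.74 to 2.01, adjusted p 0.0502 to 0.0802) and by limma voom (1.64, adjusted p = 0.0793), and without AD-3 the value was 2.26 (adjusted p = 0.000165). The 3 libraries with high Ache were those with low cortex and high thalamus markers. In AD-HFD against AD, with 37.2 ± 8.69 CPM against 134 ± 72.2 CPM (SD, n = 4 each), Ache stood at -1.85 ± 0.427 and did not pass (adjusted p = 0.0605), while it did without AD-3 or AD-HFD-3 (adjusted p = 0.000241 and 0.0158) and by DESeq2 (adjusted p = 0.00143). In AD-HFD against Sham the difference was 0.08 ± 0.416 (95% interval -0.82 to 0.99, adjusted p = 0.896).

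Bche did not pass in any comparison by edgeR. Its levels were 14.7, 10.6, 2.56 and 22.2 CPM in AD-HFD-1 to AD-HFD-4, 16.8, 17.2, 4.52 and 17.0 CPM in AD-1 to AD-4, and 5.73, 9.30, 6.97 and 6.19 CPM in Sham-1 to Sham-4. AD-HFD-3 and AD-3 lay below all Sham libraries and the other 6 model libraries above them. Its log2 fold change was 0.83 ± 0.538 in AD-HFD against Sham (adjusted p = 0.248), -0.15 ± 0.528 in AD-HFD against AD (0.871) and 0.97 ± 0.538 in AD against Sham (0.296). Without AD-HFD-3 it passed in AD-HFD against Sham (1.16, adjusted p = 0.0386). The sum of 7 oligodendrocyte markers was likewise lowest in AD-HFD-3 and AD-3 within their groups, at 6632 and 12006 CPM, against 17640 to 47522 CPM in the other model libraries and 8286 to 20103 CPM in Sham, and its part in the Bche values was not tested.

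Among the muscarinic receptors, Chrm1 and Chrm4 fell in AD, and Chrm2, Chrm3 and Chrm4 fell in AD-HFD, each against Sham. Chrm1, the main muscarinic receptor of cortical and hippocampal pyramidal neurons, was at 9.01, 19.9, 62.3 and 4.89 CPM in AD-HFD-1 to AD-HFD-4, at 2.46, 1.58, 19.7 and 2.94 CPM in AD-1 to AD-4, and at 125, 90.4, 101 and 137 CPM in Sham-1 to Sham-4. Neither model group overlapped Sham, and AD-HFD-3 and AD-3 were the highest of their groups. Chrm1 fell by 4.08 ± 0.914 on the log2 scale in AD against Sham (adjusted p = 0.0249 by edgeR). Against Sham, its AD-HFD log2 fold change of -2.24 ± 0.836 missed the threshold (adjusted p = 0.0579), but passed without AD-3 or AD-HFD-3 (adjusted p = 0.0169 and 0.00691) and by DESeq2, limma voom or a fit on the compared groups alone. The AD call was lost without AD replicate 1, 2 or 4, or Sham replicate 1, 3 or 4 (log2 -4.13 to -3.75, adjusted p 0.0535 to 0.0742) and with AD-3 as the only AD library (-2.54, adjusted p = 0.267), and without AD-3 the value was -5.62 (adjusted p = 0.00237). In AD-HFD against AD it stood at 1.85 ± 0.846 (adjusted p = 0.163), and at 3.38 without AD-3 (adjusted p = 0.0103). The order of the AD libraries in Chrm1 followed their cortex marker sums only in part, in that AD-3 was highest and AD-2 lowest in both.

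Chrm4, a Gi-coupled receptor abundant in striatum and also present in cortex, was at 7.10, 9.43, 25.5 and 4.13 CPM in AD-HFD-1 to AD-HFD-4, at 4.64, 3.09, 16.5 and 5.01 CPM in AD-1 to AD-4, and at 43.2, 33.4, 43.8 and 41.7 CPM in Sham-1 to Sham-4. Both model groups lay wholly below Sham. It fell by 1.81 ± 0.570 in AD-HFD against Sham (adjusted p = 0.0311 by edgeR) and by 2.47 ± 0.587 in AD against Sham (adjusted p = 0.0314). The AD call was lost without AD replicate 1, 2 or 4, or any 1 Sham library (log2 -2.60 to -2.20, adjusted p 0.0575 to 0.0901) and with AD-3 as the only AD library (-1.30, adjusted p = 0.385). The AD-HFD call was lost without AD-HFD replicate 1, 2 or 4, or Sham replicate 1, 3 or 4 (adjusted p 0.0629 to 0.0821). Without AD-3 the AD value was -3.26 and without AD-HFD-3 the AD-HFD value was -2.56. Between AD-HFD and AD the difference was 0.66 ± 0.570 (adjusted p = 0.451).

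Chrm3, a Gq-coupled receptor, was at 15.9, 16.5, 34.6 and 7.09 CPM in AD-HFD-1 to AD-HFD-4, at 39.5, 29.4, 17.6 and 36.5 CPM in AD-1 to AD-4, and at 76.0, 79.7, 63.8 and 90.4 CPM in Sham-1 to Sham-4. Unlike Chrm1 and Chrm4, it was lowest, not highest, in AD-3 among the AD libraries. It fell by 2.06 ± 0.396 in AD-HFD against Sham (4.18-fold lower, 95% interval of the log2 fold change -2.93 to -1.20, adjusted p = 0.00456 by edgeR), the smallest p of the 10 genes in that comparison. It passed in each of the 24 alternatives tried for this value (log2 -2.56 to -1.79, adjusted p at most 0.0176). The AD and Sham libraries did not overlap either, but the log2 fold change of -1.33 ± 0.387 did not pass (adjusted p = 0.0615). It passed without AD-HFD-3 or AD-HFD-4 (adjusted p = 0.0161 and 0.0212), by DESeq2 (0.017), by limma voom (0.0456) and on the compared groups alone (0.0113). Between AD-HFD and AD the difference was -0.73 ± 0.385 (adjusted p = 0.217), and -1.23 without AD-HFD-3 (adjusted p = 0.0197).

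Chrm2 is a Gi-coupled receptor found on cholinergic terminals and in brainstem and thalamus. Among the muscarinic members, it alone had a mean in AD that was not below that in Sham. It was at 3.58, 3.35, 5.0 and 1.03 CPM in AD-HFD-1 to AD-HFD-4, at 13.9, 15.5, 4.95 and 9.69 CPM in AD-1 to AD-4, and at 8.53, 7.51, 8.23 and 8.91 CPM in Sham-1 to Sham-4. All AD-HFD libraries lay below all Sham libraries, as did AD-3, while the other 3 AD libraries lay above them. It fell by 1.35 ± 0.418 in AD-HFD against Sham (adjusted p = 0.0291 by edgeR), a call lost without AD-HFD replicate 1, 2 or 4, or Sham replicate 1, 3 or 4 (log2 -1.42 to -1.06, adjusted p 0.0515 to 0.0681). In AD-HFD against AD it stood at -1.76 ± 0.419 (adjusted p = 0.0605), and it passed without AD-3 or AD-HFD-3 (adjusted p = 0.00428 and 0.00968) and by DESeq2 (0.0024). Against Sham, the AD value was 0.41 ± 0.398 (95% interval -0.46 to 1.28, adjusted p = 0.569), and -0.75 with AD-3 as the only AD library (adjusted p = 0.5).

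The receptors did not keep 1 proportion across the groups. The ratio of Chrm1 to Chrm2 counts was 2.51, 5.94, 12.5 and 4.74 in AD-HFD-1 to AD-HFD-4, 0.177, 0.101, 3.97 and 0.303 in AD-1 to AD-4, and 14.6, 12.0, 12.3 and 15.4 in Sham-1 to Sham-4. The ratio was thus lower in 3 of the AD libraries than in any other library, while AD-HFD-3 lay within the range of Sham. The ratio of Chrm1 to Chrm3, the other Gq-coupled receptor here, was 0.567 to 1.80 in AD-HFD, 0.0623, 0.0537, 1.12 and 0.0805 in AD-1 to AD-4, and 1.13 to 1.64 in Sham. It was below every Sham library in all 4 AD libraries, by the smallest margin in AD-3.

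**Figure D3:**
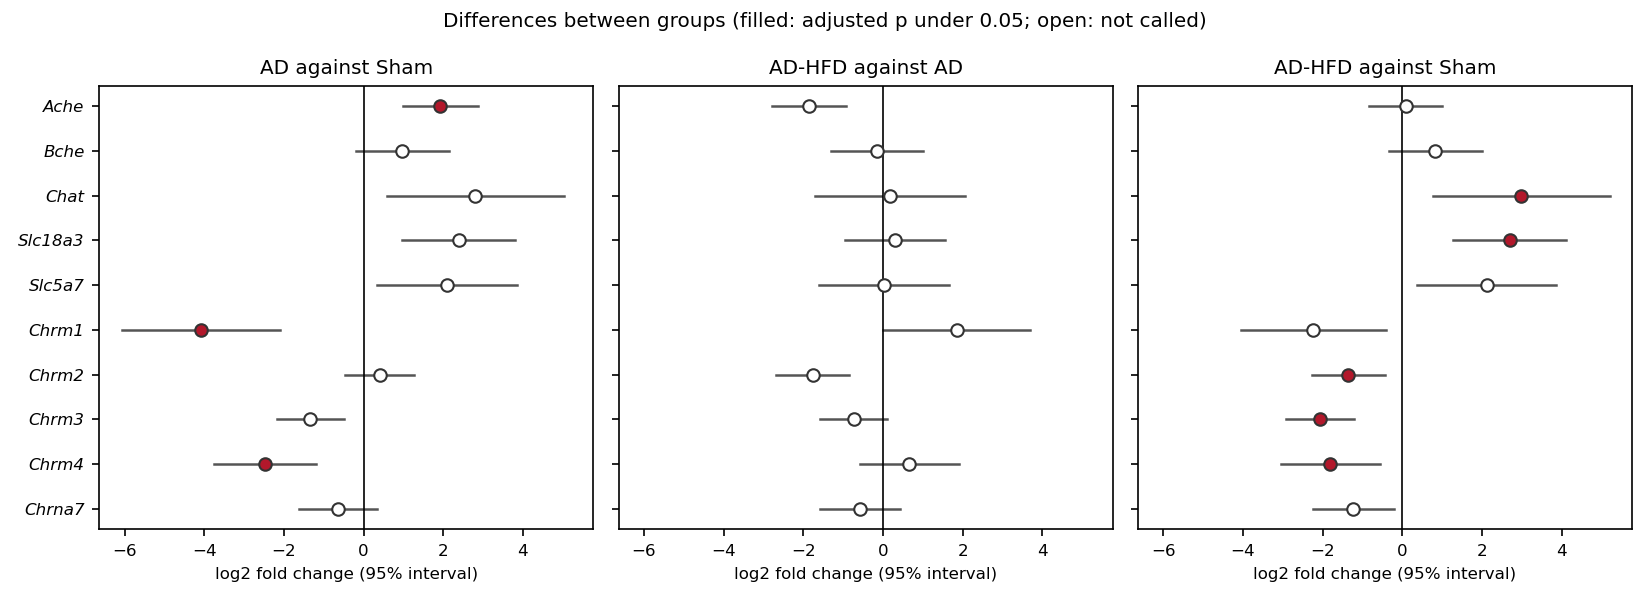
Log2 fold change of each of the 10 genes (points) with its 95% interval (lines) in AD against Sham, AD-HFD against AD and AD-HFD against Sham; filled points have an adjusted p under 0.05. Filled points are Ache, Chrm1 and Chrm4 on the left, none in the middle, and Chat, Slc18a3, Chrm2, Chrm3 and Chrm4 on the right.

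Chrna7, the subunit of the homomeric nicotinic receptor, was at 6.28, 8.57, 17.0 and 2.76 CPM in AD-HFD-1 to AD-HFD-4, at 11.5, 19.9, 5.94 and 14.6 CPM in AD-1 to AD-4, and at 23.7, 18.9, 17.6 and 20.9 CPM in Sham-1 to Sham-4. The AD-HFD libraries lay below all Sham libraries, by a small margin for AD-HFD-3, and AD-2 overlapped Sham. Its log2 fold change of -1.23 ± 0.462 in AD-HFD against Sham missed the threshold (adjusted p = 0.0594 by edgeR) and passed without AD-3 or AD-HFD-3 (adjusted p = 0.038 and 0.00564), by DESeq2 and by limma voom. The values in AD-HFD against AD (-0.58 ± 0.461, adjusted p = 0.405) and in AD against Sham (-0.64 ± 0.455, adjusted p = 0.421) did not pass.

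Across the receptors, all 5 genes lay wholly below Sham in AD-HFD, and 3 of 5, Chrm1, Chrm3 and Chrm4, did in AD. Of all genes tested, 16.2% lay wholly below Sham in AD-HFD and 11.3% in AD. General neuron markers moved beside them: of 8, 5 fell in AD-HFD against Sham by edgeR (Tubb3, Snap25, Syt1, Rbfox3 and Syp, median of the 8 -1.25), where 12.9% of all genes were called lower. DESeq2 called 7 and limma voom 8 there. In AD against Sham none was called by edgeR (median -0.36, 2 at an unadjusted p under 0.05, 2 called by DESeq2 and 0 by limma voom). Of the 7 cortex markers tested none was called in AD-HFD against Sham by edgeR (median -1.73, 3 at an unadjusted p under 0.05, 1 called by DESeq2 and 4 by limma voom). In AD 1, Neurod6, fell by edgeR (median -2.61, 0 called by DESeq2 and 5 by limma voom). On the measure used for the receptors, 6 of the 7 cortex markers lay wholly below Sham in AD-HFD and all 7 in AD. Of the 8 general neuron markers, 5 did in AD-HFD and 4 in AD. AD-HFD-4, which had the lowest sum of general neuron markers, also had the lowest level of Ache, Chrm1, Chrm2, Chrm3, Chrm4 and Chrna7 in its group, and the highest sum of red blood cell markers, 4207 CPM against 159 to 361 CPM in Sham. The part of these differences in the receptor values was not tested.

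**Figure D4:**
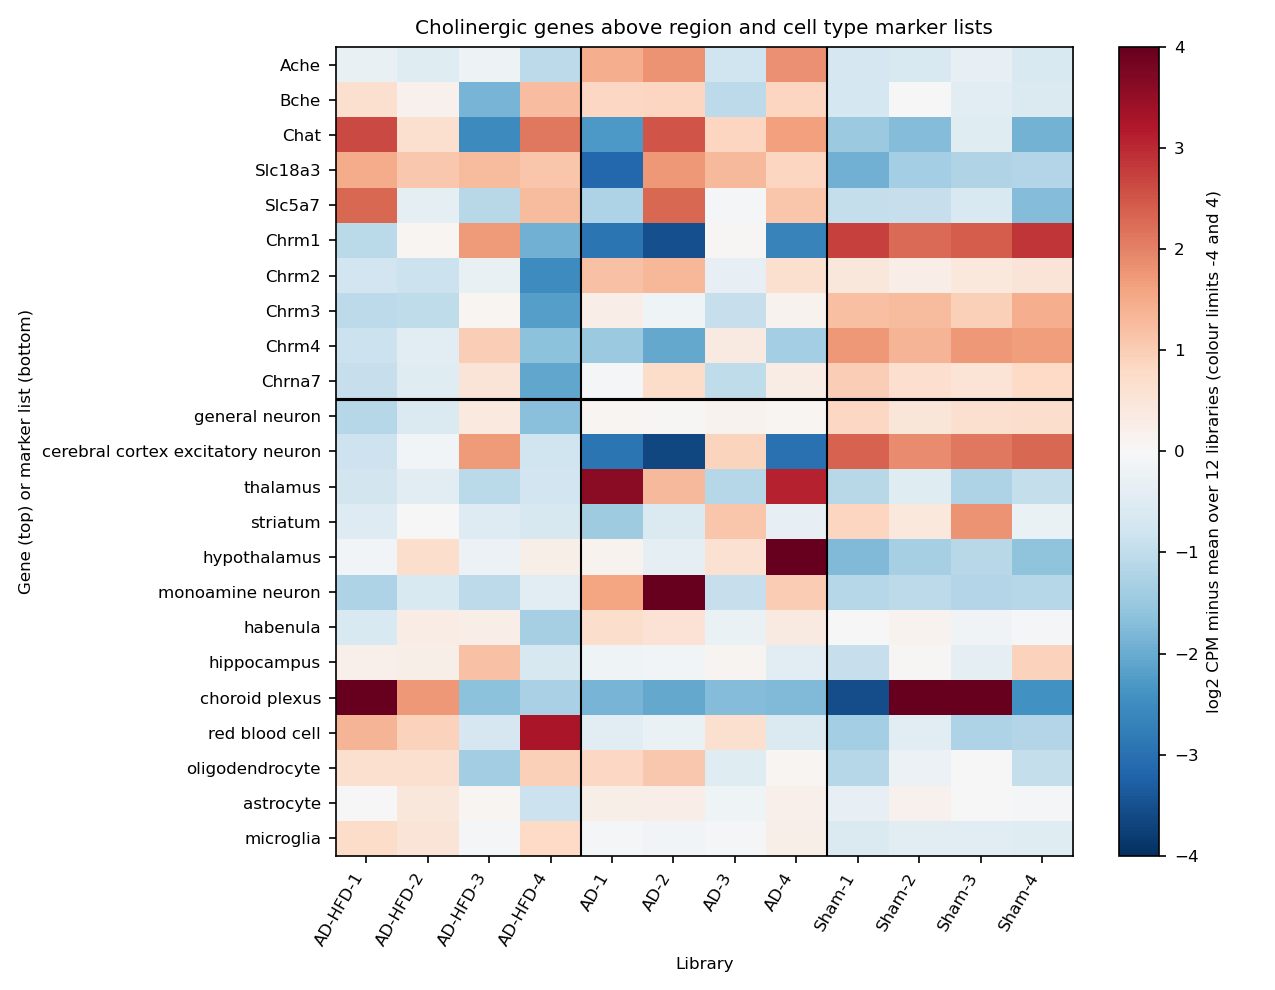
Log2 CPM of the 10 genes (top) and mean log2 CPM of 13 marker lists (bottom) in each library, as the difference from that row's mean over the 12 libraries, with colours limited to -4 and 4. AD-1, AD-2 and AD-4 show high Ache and thalamus rows beside low Chrm1 and cortex rows, which AD-3 does not, and AD-HFD-4 shows low receptor and general neuron rows.

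Of 63 further genes of cholinergic transmission, 55 were tested. Among these, 5 were called in AD against Sham, 2 higher and 3 lower, where 6.23% of all genes were called (median log2 fold change -0.03, beside 0.06 over all genes tested). None of the 5 calls held against every removal of 1 library. Gnai1 was lost without Sham-1 (adjusted p = 0.053), and the others without AD-4, Sham-1, Sham-3 or Sham-4, among further libraries (adjusted p at most 0.139). Colq, the collagen tail that anchors acetylcholinesterase, rose by 3.08 ± 0.840 (adjusted p = 0.0445 by edgeR) at low levels, 0.496 to 2.36 CPM in AD against 0 to 0.175 CPM in Sham. Chka, a choline kinase, rose by 0.90 ± 0.195 (adjusted p = 0.0218). The falls were in the list of muscarinic signalling genes, of which 3 of 22 were called: the G protein subunit Gnai1 (-0.78 ± 0.132), the phospholipase Plcb1 (-1.67 ± 0.364) and the M-current channel Kcnq5 (-2.33 ± 0.600). Prima1, the membrane anchor of acetylcholinesterase, stood at 1.27 ± 0.490 and did not pass (adjusted p = 0.14). Of the 7 other receptor subunits tested none was called by edgeR or limma voom (2 at an unadjusted p under 0.05, 2 called by DESeq2). Those with the smallest p were Chrna5 (-2.0 ± 0.774) and Chrnb4 (1.77 ± 0.682), with an adjusted p of 0.14 each.

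In AD-HFD against Sham 20 of the 55 were called, 8 higher and 12 lower, a share near the 32.7% of all genes called, of which 19.7% were higher and 12.9% lower (median log2 fold change -0.52, beside 0.03 over all genes). Of those named below, 8 kept their call when any 1 library was left out, and Chrna4, Ric3, Pcyt1a and Pcyt1b did not. Ric3 was lost without Sham-1 or Sham-4, and the others without AD-HFD replicate 1, 2 or 4 or any 1 Sham library, among others (adjusted p at most 0.113). Of the 22 muscarinic signalling genes 3 rose and 8 fell. The phospholipase Plcb3 (1.84 ± 0.324) and the G protein subunit Gnai3 (1.65 ± 0.321) rose, and Gnai1 (-0.67 ± 0.132) and Plcb1 (-1.58 ± 0.363) fell. Markers of other cell types moved in the same comparison: of 7 microglia markers 5 rose, Itgam (4.14 ± 0.651) and C1qa (1.55 ± 0.199) among them, and 1, P2ry12, fell (-1.59 ± 0.388), and of 7 oligodendrocyte markers 2 rose. The microglia sum was 394, 373, 235 and 498 CPM in the AD-HFD libraries in replicate order, against 147 to 157 CPM in Sham, and Gnai3 was at 180, 127, 69.1 and 238 CPM in those AD-HFD libraries, against 41.4 to 60.7 CPM in Sham. Both were highest in AD-HFD-4 and lowest in AD-HFD-3 within AD-HFD, and the part of these cell types in the rises was not tested. Among 12 choline uptake and phosphatidylcholine synthesis genes 3 rose and 1 fell: Chka (0.90 ± 0.195), the choline transporter Slc44a1 (1.09 ± 0.281) and the phosphocholine-activating enzyme Pcyt1a (0.42 ± 0.140) rose, and Pcyt1b, its neuronal relative, fell (-0.88 ± 0.292). The nicotinic receptor modulator Lynx1 (-1.50 ± 0.354) and the nicotinic receptor chaperone Ric3 (-0.97 ± 0.275) fell out of 8 anchor and assembly genes. Chrna4, partner of Chrnb2 in the main heteromeric nicotinic receptor of brain, fell by 1.65 ± 0.589 (adjusted p = 0.049) and was the 1 call among 7 other receptor subunits. In AD-HFD against AD none of the 55 was called by edgeR, 12 passed at an unadjusted p under 0.05 (30.5% of all genes did), DESeq2 called 9 (16.5% of all genes) and limma voom 0. The smallest p per list belonged to Chrna4 (-2.22 ± 0.599, adjusted p = 0.0618), Lynx1 (-1.59 ± 0.355, 0.0605), Pcyt1b (-0.85 ± 0.292, 0.0883), Plcb4 (-1.66 ± 0.367, 0.0605) and Isl1 (-2.17 ± 1.11, 0.203).

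Of 6 tested genes that mark cholinergic neurons or their neurotrophin receptors, Ngfr, the p75 neurotrophin receptor, is given here with its values. It was at 41.7, 19.5, 2.56 and 13.4 CPM in AD-HFD-1 to AD-HFD-4, at 3.12, 3.03, 10.3 and 25.9 CPM in AD-1 to AD-4, and at 1.46, 1.82, 1.97 and 1.34 CPM in Sham-1 to Sham-4. All AD-HFD and AD libraries lay above all Sham libraries. AD-HFD-3 was the lowest of its group, as for Chat, but in AD the lowest was AD-2, which had the highest Chat (12.5 CPM). Of the 6 genes, 2 were called by edgeR in AD-HFD against Sham, both higher, where 19.7% of all genes were called higher. In AD against Sham edgeR called 0 of the 6, where it called 6.23% of all genes, and limma voom called 0. DESeq2 called 3 there (12.0% of all genes it tested). By edgeR, 3 of the 6 had an unadjusted p under 0.05, as did 4517 of all 18850 genes. Ngfr rose by 3.55 ± 0.856 in AD-HFD against Sham (adjusted p = 0.0109 by edgeR), a call not made by limma voom, and stood at 2.68 ± 0.842 in AD against Sham (adjusted p = 0.0799). Lhx8, a transcription factor of forebrain cholinergic neurons, had 7.56 CPM in AD-HFD-1 and 5.73 CPM in AD-4 but none in AD-1 and AD-2. It did not pass in any comparison by edgeR (adjusted p 0.0503 to 0.532).

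The genes with the most similar profile were sought by the root mean square difference between log2 CPM profiles over the 12 libraries, each centred on its own mean, among 13109 named genes with a mean of at least 1 CPM over the 12 libraries. All profiles share the libraries and their tissue content. For Chat, whose own profile had a root mean square of 1.88, Steap4 (1.09) and Dysf (1.10) were among the 3 nearest, and for Slc18a3 Isg20 (0.82, own 1.58), Scnn1a (0.86) and Fam167a (0.88). For Slc5a7 they were Tm4sf19 (0.84, own 1.34), Slc10a4 (0.84), an orphan vesicular transporter known from cholinergic and monoaminergic neurons, and Gchfr (0.85). Ache was nearest to Nap1l5 (0.29, own 1.01), Resp18 (0.29) and Ahi1 (0.32), and Bche to Ccdc152 (0.29, own 0.90), Selenop (0.32) and Acaa2 (0.33). Chrm1 was nearest to Neurod6 (0.60, own 2.28), a transcription factor of cortical excitatory neurons, Kcnv1 (0.64) and Itpka (0.72). The nearest genes of Chrm2 were Cxxc4 (0.20, own 1.00), Tspyl4 (0.23) and Gjd2 (0.23), and of Chrm3 Lrrtm3 (0.18, own 1.08), Lrrc4c (0.23) and Grm5 (0.24). Chrm4 lay nearest to Kalrn (0.28, own 1.40), Psrc1 (0.32) and Tiam2 (0.34), and Chrna7 to Srgap3 (0.22, own 0.90), Nyap2 (0.26) and Ttll1 (0.28). The nearest profiles of Chat, Slc18a3 and Slc5a7 were farther away than those of the other 7 genes.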

How the data were processed

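Brain RNA of 12 samples was sequenced, 4 per group, with group and replicate read from each library's name. Per the labels' protocols, TRIzol was used for extraction and a Yeasen mRNA kit for library construction. Per the submitters' processing notes, FastQC and Trimmomatic were used. The aligner, counter, strand setting, build and annotation are not given in the sources used here. The authors deposited raw counts per gene, 31177 rows with 9127 unnamed new loci among them, which stayed in library sizes and tests. Reads of Slc18a3 and Chat, which overlap, and of near-identical or antisense genes could be split or shared, so such counts are uncertain. Promoters and gene order are from RefSeq (GRCr8).

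The analysis used edgeR 4.0.16 in R 4.3.3: filterByExpr (18850 genes kept), TMM scaling, and a non-legacy quasi-likelihood fit with 1 mean per group over all 12 libraries. The SE is the log2 fold change divided by the square root of F. Log2 CPM used a prior count of 2. Alternatives used DESeq2 1.42.0, limma 3.58.1 (voom), other scaling and filters, the replicate block and libraries left out, which were filtered and scaled anew. A lone AD library was assumed to vary like the other groups. The tests were checked on simulated counts. Of 100 genes changed 2-fold, 12 to 17 were recovered in a comparison, and of 100 changed 4-fold, 68 to 80 were. Among 86 to 104 calls, 6 to 9 were false. A gene that did not pass may thus still differ. The simulation gave all groups the same spread for each gene and changed few genes. In the data the spread differed between groups, and far more genes were called in the comparisons with Sham. The rates of recovery and false calls may therefore not hold for the data. No library pair of a group agreed within sampling noise (chi-square per gene at least 18.7). The members, lists and tests were chosen with earlier results of these data known. Genes named are all members, up to 4 called genes with the smallest p in each list (otherwise up to 2), the 3 nearest profiles per member and region markers; Prima1, Lhx8 and the genes of the closing observations were chosen after their values were seen. 1 gene that the rule selects is not reported here.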

Additional observations from a re-analysis of the deposited data

Results flagged for a closer look

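In each group of 4 the highest or lowest library was compared with its nearest neighbour, over 30 groups (10 genes in 3 groups), by the limit of Dixon's test for 4 samples. Chance passes about 1 in 20 such groups, and 4 passed here. AD-3 stood apart from the other AD libraries for 3 genes: Chrm1 at 19.7 CPM against a next value of 2.94 CPM, Chrm4 at 16.5 CPM against 5.01 CPM, and Bche, low, at 4.52 CPM against 16.8 CPM. Ache in Sham-3, at 41.1 CPM against 33.7 CPM, was the other.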

How the results depend on the processing

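The number of members called was 3 in AD against Sham, 0 in AD-HFD against AD and 5 in AD-HFD against Sham. In that order, DESeq2 called 7, 2 and 8 (12.0%, 16.5% and 32.4% of all genes it tested). A limit of 0.1 gave 5, 2 and 8 (12.4%, 18.2% and 43.9% of all genes), and a limit of 0.01 gave 0, 0 and 1 (1.05%, 0% and 11.5%). AD-HFD-1 and AD-HFD-2 as the only AD-HFD libraries gave 5, 1 and 8 (14.1%, 9.56% and 32.1%). Leaving out 1 library gave 0 to 6, 0 to 3 and 2 to 9. For AD against Sham it was 0 without AD-2, AD-4, or Sham replicate 1, 3 or 4 (1.56% to 3.78% of all genes). It was 1 without AD-1 or Sham-2 (3.45% and 2.74%), 5 without AD-HFD-4 (9.34%) and 6 without AD-HFD-3 (11.8%). For AD-HFD against AD it was 3 without AD-3 or AD-HFD-3, where 30.3% and 27.6% of all genes were called. For AD-HFD against Sham it was 2 without AD-HFD replicate 1, 2 or 4, or Sham replicate 1, 3 or 4 (18.2% to 23.2% of all genes). It was 9 without AD-HFD-3, where 44.6% of all genes were called. The wider genes called numbered 5, 0 and 20 by edgeR, 13, 9 and 26 by DESeq2, and 1 to 12, 0 to 22 and 13 to 36 without 1 library. Same-numbered libraries did not deviate together (correlations -0.0255 to 0.0812, -0.0355 to 0.0947 and -0.317 to 0.0461, with at most 2 of 8 libraries correlating best with their own number). Differences in tissue content among the libraries could hide a pairing, so whether the numbers pair the samples is not known. With the replicate block 2, 0 and 5 members were called (4.51%, 0.0265% and 27.4% of all genes). Ache in AD (adjusted p = 0.0696 by edgeR) and Chat in AD-HFD (0.111) lost their call against Sham, and Chrm1 in AD-HFD (0.0165) gained one.

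Of 720 member values under alternatives, 585 kept direction and side of the threshold, 53 lost the call, 52 gained it and 30 changed sign. With AD-3 as the only AD library, Ache (-0.26), Bche (-0.64) and Chrm2 (-0.75) changed sign against Sham, and for AD-HFD against AD so did Ache (0.33), Bche (1.45), Slc18a3 (-0.0474), Chrm3 (0.0834), Chrm4 (-0.50) and Chrna7 (0.55). Slc5a7 in AD-HFD against AD was 0.02 in the main fit and ran from -0.80 to 1.19 over all alternatives. Near 0, it was -0.00724 with RLE scaling, -0.00401 with DESeq2 and -0.0473 with voom. Without a filter it was -0.0274, with the replicate block -0.0115 and on the compared groups alone -0.031. Chat in the same comparison was -0.0398 with voom. Without 1 library, AD-HFD against AD ran from -0.80 to 0.83 for Slc5a7, -0.44 to 0.80 for Chat, -0.13 to 0.68 for Slc18a3, -0.58 to 0.19 for Bche and -0.0912 to 1.45 for Chrm4, and AD-HFD against Sham from -0.0224 to 0.23 for Ache. The causes were not tested. Chat and Slc18a3 had 9 to 45 counts in AD-1 and the Sham libraries, which limits their precision.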

Other observations

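Of the 4 nicotinic subunits too low to be tested, Chrna6 and Chrnb3, picked after their values were seen, had their highest levels in AD libraries. Chrna6, a subunit of dopamine neuron receptors, had at most 0.197 CPM in AD-HFD, 2.22, 14.0, 0 and 2.90 CPM in AD-1 to AD-4, and 0 in all Sham libraries. Chrnb3, its usual partner, was at 1.97, 7.24, 0.0615 and 0.327 CPM in AD-1 to AD-4, against at most 0.32 CPM in Sham. The sum of 8 monoamine neuron markers was 105, 943, 14.8 and 54.9 CPM in AD-1 to AD-4, against 14.7 to 29.3 CPM in Sham. Isl1, a transcription factor of striatal, hypothalamic and motor cholinergic neurons, was at 15.5 CPM in AD-4, where the sum of 11 hypothalamus markers was 1890 CPM, and reached 2.63 CPM at most in any other library.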
